A study of Mus musculus with 23 samples.

Results

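In cross-linked RNA that was recovered from mouse embryonic stem cells by immunoprecipitation of Upf1, or with control IgG, 951 of 8220 covered regions of the genome (11.6%) lay just 3′ of a spliced span. A spliced span is the stretch of genome from the start to the end of an alignment that crosses an exon junction. It holds the skipped stretch and the aligned ends on both sides, and a merged span can also hold whole exons. These 3′ regions were chosen by the coverage itself. Spans of over 60 and up to 20000 nt from the spliced alignments of all 10 libraries were merged on each strand, without the mitochondrial chromosome and a contig named chrRibo. Unspliced alignments of all libraries were merged into regions where at most 50 nt separated them. A 3′ region held at least 5 alignments, and its midpoint lay outside every span and within 2000 nt 3′ of one on the same strand. It did not lie within 2000 nt on the 5′ side of another span. The remaining regions with at least 5 alignments comprised 184 inside spans, 233 on the 5′ side only, 121 on both sides, 6678 farther than 2000 nt from any span and 53 on the mitochondrial chromosome or chrRibo.

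The libraries were made by crosslinking and immunoprecipitation with sequencing (CLIP-seq) from v6.5 mouse embryonic stem cells, a cultured line that had been removed from its feeder fibroblasts before ultraviolet irradiation at 254 nm and 400 mJ/cm2. A rabbit antibody against Upf1 or rabbit IgG was used on untreated cells, giving libraries A1, A2 and I with each, and on cells kept for 2 hours in 100 µg/ml cycloheximide, giving libraries A1 and A2 with each. No genetic change is given for these cells. The labels do not say whether the libraries of a group came from separate cultures, so the p-values below reflect how these libraries spread and may be technical. The 13 mRNA and ribosome footprint samples are not used here.

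Upf1 is an RNA helicase required for nonsense-mediated decay, the pathway that degrades mRNAs whose translation ends in an unsuitable context. Elongating ribosomes clear bound proteins from coding sequence, whereas the 3′ untranslated region, most of which usually lies in the last exon, is not translated. Cycloheximide stops elongating ribosomes on the mRNA. A region that follows a spliced intron without another intron soon after it can be a last exon, but internal exons and unspliced transcripts also meet the rule used here, and with no annotation or sequence of build mm9 at hand no region was assigned to a gene or to a part of one.

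The libraries held between 6650 (IgG cycloheximide A1) and 95296 (Upf1 untreated A1) unspliced alignments outside the mitochondrial chromosome and chrRibo. They were not separate pools of molecules. Within the 3′ regions, 82.4% of the molecules in IgG untreated A2, 83.2% in IgG cycloheximide A1 and 87.0% in IgG cycloheximide A2 also occurred in another library, against 40.1%, 42.7% and 50.1% in Upf1 untreated A2, Upf1 cycloheximide A1 and Upf1 cycloheximide A2, and 0.829 to 5.21% in the other 4. IgG untreated A1 stood apart, with 35.2 deposited lines for each distinct alignment in the 3′ regions against 1.12 to 2.25 in the other libraries. Treatment also moved with the length of the alignments, since under 30 nt were 9.09 to 34.4% of those in the 3′ regions of untreated libraries and 45.7 to 56.1% in cycloheximide libraries. The part of alignment length in the results below was tested only by leaving out the short alignments.

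The 3′ regions were mostly small and thinly covered, with a few long tracts that carried much of the signal. Their median width was 141 nt (22 to 2658 nt) and the median number of alignments over all libraries was 8 (5 to 538). The 10 most covered regions held 16.3% of the 15421 alignments, and the 95 most covered held 45.4%. Regions of 700 nt or more numbered 30 and those of 80 nt or less 221. For comparison, the median width was 90 nt among the 184 regions inside spans and 85 nt among the 233 on the 5′ side.

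Both antibodies recovered most of them. Alignments from a Upf1 library were present in 950 regions and from an IgG library in 853, and 852 had both, while 11 regions were seen in all 10 libraries and 14 in a single one. Untreated Upf1 libraries supplied 63.9% of the alignments, so the choice of members leaned on that group. Of the 951 regions, 397 had no alignment in either Upf1 cycloheximide library and 79 had none in the 3 Upf1 untreated libraries. These 2 counts were not corrected for depth. Upf1 untreated A1, A2 and I held 95296, 19901 and 87233 unspliced alignments outside the mitochondrial chromosome and chrRibo, and cycloheximide A1 and A2 held 29871 and 32437. Coverage was stranded, with 10 alignments on the opposite strand of the 3′ regions (0.0648% of both strands). On chromosome 11 there were 113 members, on chromosome 2 there were 90, and on chromosome 7 there were 74.

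The 3693 merged spans included 556 (15.1%) with at least one 3′ region. Of these, 326 had 1 member, 128 had 2 and 102 had 3 or more, up to 6, so members that share a span are not independent observations. The median length of these spans was 810.5 nt (104 to 19995 nt). In 333 of them the span rested on a single spliced alignment, and in 172 the spliced alignments came from cycloheximide libraries only. At the limits of the rule, 190 members had exactly 5 alignments and 305 further regions on the 3′ side had exactly 4. In the last 100 nt inside the 2000 nt limit there were 37 members, the farthest at 1996 nt, and in the 100 nt beyond it there were 36 regions of the same coverage, the nearest at 2005.5 nt.

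The share of each library's alignments that fell in the 3′ regions did not differ by treatment or antibody in the permutation tests below. In Upf1 libraries it was 6.22% in untreated A1, 3.90% in A2 and 3.62% in I, against 2.91% and 2.50% in cycloheximide A1 and A2. Both cycloheximide libraries lay below all 3 untreated ones. In IgG libraries it was 1.145%, 5.00% and 4.86% untreated and 4.53% and 4.72% with cycloheximide, where the treated libraries lay between the untreated ones. The Wilson 95% interval was narrowest for Upf1 untreated I (3.498 to 3.746%) and widest for IgG cycloheximide A1 (4.05 to 5.05%), and covers counting error only.

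Group means (± SD) for Upf1 were 4.58% ± 1.43 without cycloheximide (n = 3) and 2.70% ± 0.294 with it (n = 2). For IgG they were 3.67% ± 2.19 (n = 3) and 4.63% ± 0.140 (n = 2). Over both antibodies, cycloheximide minus untreated was -0.459 percentage points (exact two-sided permutation p = 0.56, adjusted p = 0.733 over 6 share tests). Upf1 alone gave -1.87 points (exact permutation p = 0.2) and IgG alone 0.956 points (p = 1), in a design whose smallest p is 0.1. The difference between these effects, -2.83 points, did not pass (exact permutation p = 0.117, adjusted p = 0.175 over 3). Upf1 minus IgG was -0.505 points (exact permutation p = 0.65, adjusted p = 0.733).

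**Figure D1:**
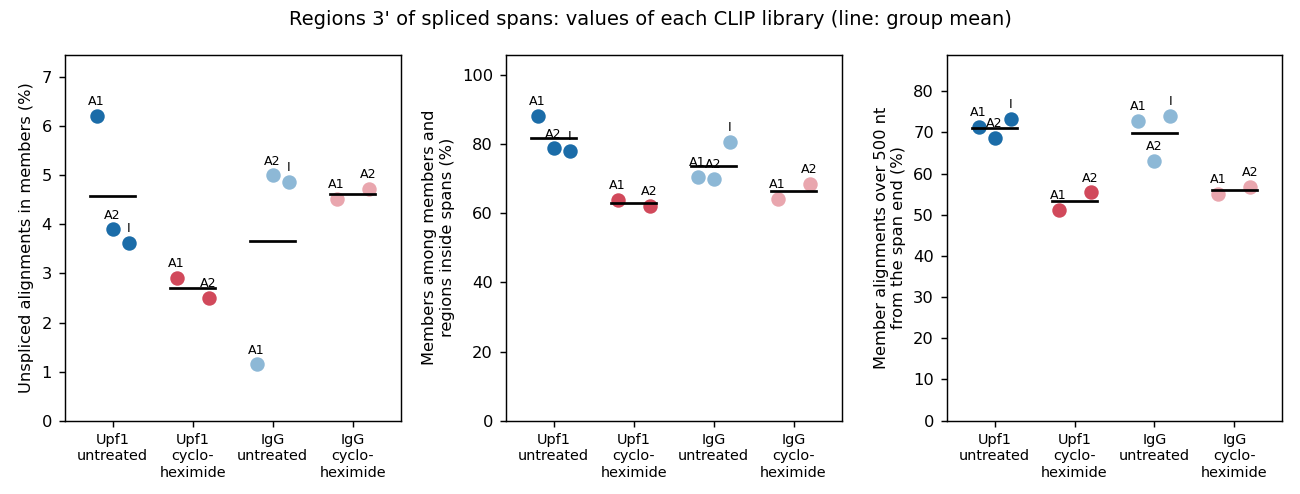
Each point is 1 library (A1, A2 or I) and each line a group mean, for the percentage of unspliced alignments in 3′ regions (left), the percentage of 3′ regions among alignments in 3′ regions and in regions inside spans (middle) and the percentage of 3′ region alignments over 500 nt from the span (right). On the right, the 4 cycloheximide libraries (51.3 to 56.8%) sit below the 6 untreated libraries (63.0 to 74.1%). On the left, the treatments overlap over both antibodies and within IgG, though not within Upf1.

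Within the 3′ regions, the coverage lay closer to the span in cells treated with cycloheximide. The distal share is the share of 3′ region alignments whose own midpoint lay over 500 nt from the end of the span. In Upf1 it was 71.4%, 68.7% and 73.3% in untreated A1, A2 and I, and 51.3% and 55.4% in cycloheximide A1 and A2. With IgG it was 72.7%, 63.0% and 74.1% untreated, and 55.1% and 56.8% with cycloheximide. All 4 cycloheximide libraries lay below all 6 untreated libraries, with both antibodies. The IgG untreated A1 value rests on 110 alignments in all.

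The mean distal share (± SD) was 71.1% ± 2.33 (n = 3) in untreated and 53.3% ± 2.95 (n = 2) in treated Upf1 libraries, and 69.9% ± 6.04 (n = 3) and 56.0% ± 1.19 (n = 2) in IgG. Cycloheximide minus untreated over both antibodies was -15.9 points (p = 0.01 by exact two-sided permutation, the lowest p available here, adjusted p = 0.03 over 6 share tests). Separately the difference was -17.8 points in Upf1 (exact permutation p = 0.1) and -14.0 points in IgG (p = 0.2), and the difference between antibodies, -3.83 points, did not pass (exact permutation p = 0.417). Upf1 minus IgG was -0.729 points (exact permutation p = 0.733). A similar shift was already known from these libraries when the regions were chosen, so this is not independent support for it. The span ends from which distance was measured were also set by these libraries, with 3856 spliced alignments from cycloheximide and 2716 from untreated ones. The test is therefore not free of the rule.

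Several values move with this difference. Spliced alignments at the spans of the 3′ regions numbered 3.53 to 7.91 for every 100 alignments in the regions in untreated libraries and 15.7 to 24.1 in cycloheximide libraries. These spliced alignments defined the spans, so this is a description and no test of it is used as support. Of the 556 spans, 172 rested on spliced alignments from cycloheximide libraries only. Spans from untreated libraries only gave 721 members, of which 688 were also members under the main rule. With these the difference in the distal share was -13.5 points (exact permutation p = 0.01, adjusted p = 0.06). Without molecules found in more than 1 library it was -12.8 points (exact permutation p = 0.07), and -13.6 points when only libraries with 38 nt reads were used (exact permutation p = 0.0556, the lowest p those libraries allow). All 3 libraries with 34 nt reads were untreated, so no value can be had within them. Among the 375 members at the 123 spans with members on both sides of 500 nt, the difference was -10.9 points (exact permutation p = 0.03, adjusted p = 0.09), and there the IgG groups overlapped (57.1 to 72.4% untreated, 55.1 and 60% with cycloheximide).

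The profile differed most in the first 250 nt after the span. Untreated Upf1 libraries had 12.6% ± 1.70 (SD, n = 3) of their 3′ region alignments there and cycloheximide libraries 31.2% ± 2.97 (SD, n = 2). With IgG the values were 13.9% ± 2.88 (SD, n = 3) and 28.2% ± 2.87 (SD, n = 2). In the next 250 nt the order was the other way, at 15.1% ± 0.525 and 11.9% ± 0.0963 in Upf1 and 14.4% ± 2.38 and 10.9% ± 2.75 in IgG (SD, n = 3 and 2). With spans from untreated libraries only, the first 250 nt held 13.3% and 27.8% in Upf1 and 13.9% and 25.1% in IgG, untreated before cycloheximide.

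**Figure D2:**
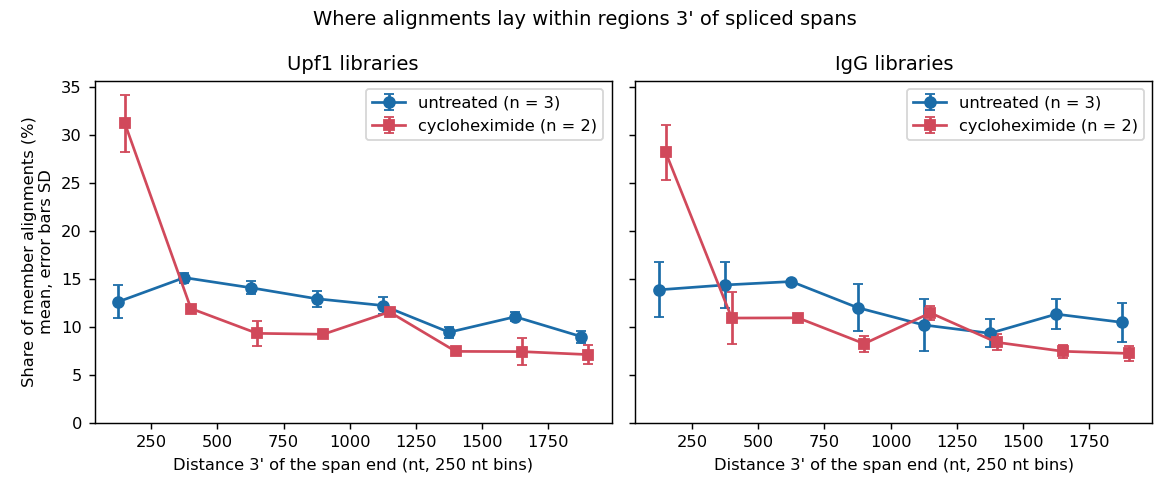
Share of 3′ region alignments (vertical axis, %) in 250 nt bins of distance 3′ of the span end (horizontal axis, nt), for Upf1 (left) and IgG libraries (right); points are means over 3 untreated and 2 cycloheximide libraries, bars are SD. In the first bin cycloheximide libraries average 31.2% and 28.2%, against 12.6% and 13.9% untreated; the untreated profile is flatter over all bins.

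The same contrast appeared in the rates, expressed as alignments per 100000 unspliced alignments of a library. The 203 members with midpoints up to 250 nt from the span together had 584 ± 185 in untreated Upf1 libraries and 924 ± 190 in cycloheximide ones (SD, n = 3 and 2). The 116 members between 750 and 1000 nt had 716 ± 246 and 259 ± 8.25, so the untreated mean was 2.77 times the treated one. In each of the 7 tiers beyond 250 nt the untreated Upf1 mean was the higher, by 1.80 to 2.77 times. In IgG the nearest tier had 529 ± 368 and 1481 ± 139, and the 7 farther tiers gave ratios from 0.784 to 1.35, on both sides of equality. These rates are not independent of the share above, and were not tested.

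Coverage by treatment also differed with the width of the 3′ regions, which came from merging the alignments of all libraries. In Upf1 libraries the 221 regions of up to 80 nt had 302 ± 139 alignments per 100000 untreated and 767 ± 170 with cycloheximide, while the 30 regions of 700 nt or more had 1230 ± 356 and 318 ± 4.90 (SD, n = 3 and 2). For the widest regions each untreated Upf1 library (1010 to 1640) was above each cycloheximide library (314 and 321). In IgG the narrow regions had 319 ± 342 and 1267 ± 165, and the wide ones 993 ± 657 and 629 ± 146, where the untreated and treated libraries overlapped. A wide region joins many alignments, most of which came from untreated Upf1 libraries, so width and treatment are linked by how regions were formed, and no test was made.

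**Figure D3:**
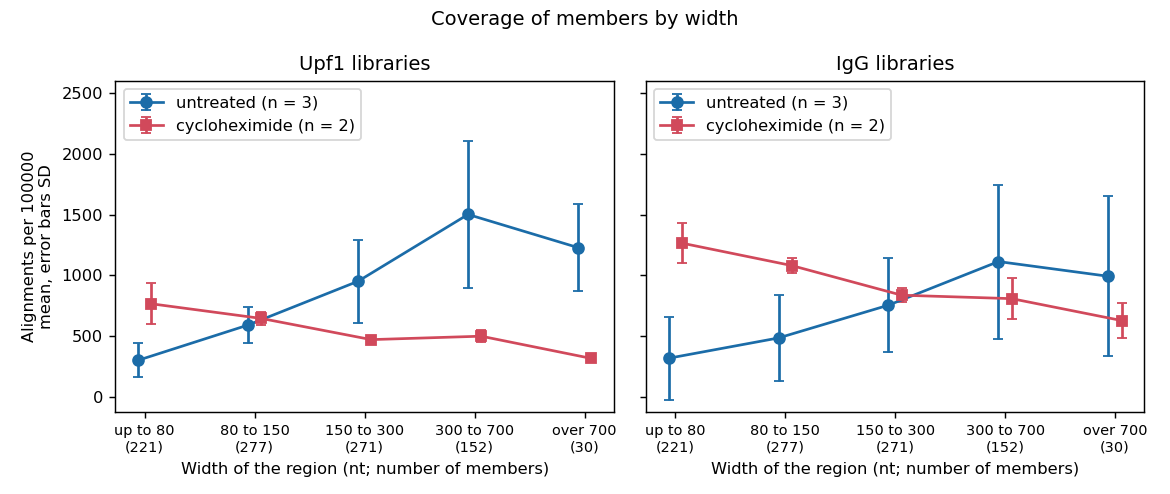
Alignments per 100000 unspliced alignments (vertical axis; mean, bars SD) in 3′ regions grouped by width (horizontal axis, nt, with the number of regions), for Upf1 (left) and IgG (right), untreated (n = 3) and cycloheximide (n = 2). In Upf1 the lines cross: the narrowest group averages 302 untreated and 767 with cycloheximide, the widest 1230 and 318.

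Set against the interior of spans, the 3′ regions lost ground with cycloheximide, but this depended on how it was counted. What lay inside was decided by spliced alignments, 3856 from cycloheximide and 2716 from untreated libraries. Untreated Upf1 libraries supplied 63.9% of the alignments in 3′ regions. The rule itself thus leaned toward a lower share with cycloheximide, and the test below is not free of it. The 3′ regions' share of alignments in 3′ regions and in regions inside spans was 88.3%, 78.8% and 78.0% in Upf1 untreated A1, A2 and I and 63.9% and 62.2% in cycloheximide A1 and A2. In IgG it was 70.5%, 70.0% and 80.6% untreated and 64.2% and 68.5% with cycloheximide. Every cycloheximide library lay below every untreated one. Cycloheximide minus untreated was -13.0 points (p = 0.01 by exact permutation, again the lowest available, adjusted p = 0.03), with -18.6 points in Upf1 (p = 0.1) and -7.38 points in IgG (p = 0.3), and the effects did not differ by the exact permutation test (-11.2 points, p = 0.0833, adjusted p = 0.175).

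A single region of 5986 nt held 2155 of the 4187 alignments inside spans. With the 20 most covered regions left out the difference was -12.6 points. With every deposited line counted it was -10.4 points (exact permutation p = 0.1), with spans from untreated libraries only -8.13 points (p = 0.11), and with all unspliced alignments inside the 556 spans in place of covered regions -4.94 points (p = 0.05, adjusted p = 0.15). Upf1 minus IgG was 2.34 points (exact permutation p = 0.567).

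The most covered 3′ regions were long tracts, and in 9 of the 10 each Upf1 cycloheximide library had a lower rate than each untreated one. These 10 were ranked by alignments over all libraries, and untreated Upf1 libraries supplied 63.9% of the alignments in 3′ regions. The ranking thus favoured this direction. None of the 10 passed the limma-voom test for single regions. The pattern of non-overlapping Upf1 libraries was common in the data. Among the 2357 regions tested it held in this direction for 23.5%, and among the 396 tested 3′ regions for 124 (31.3%), and in the opposite direction for 9.38% of all and 33 (8.33%) of the 3′ regions. In IgG the cycloheximide libraries lay below the untreated ones in 2.5% of all tested regions and 16 (4.04%) of the 3′ regions, and above them in 11.2% and 51 (12.9%). In 2 of the 10 most covered regions the IgG groups did not overlap.

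The region with the most alignments was chr11:95823439-95824888 on the minus strand (1450 nt, midpoint 720 nt from the span), with 538. Its rate per 100000 alignments was 214, 201 and 113 in Upf1 untreated A1, A2 and I and 50.2 and 58.6 in cycloheximide A1 and A2. With IgG it was 31.2, 242 and 233 untreated and 90.2 and 146 with cycloheximide. The Upf1 groups were separate and the IgG groups overlapped, with IgG untreated A1 the lowest of all. The log2 change with cycloheximide in Upf1 was -1.36 ± 1.17 (SE, limma adjusted p = 0.542).

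The widest, chr5:92481418-92484075 on the minus strand (2658 nt), held 355 alignments. Its rate was 110, 40.2 and 135 in untreated Upf1 libraries A1, A2 and I and 56.9 and 40.1 in cycloheximide A1 and A2, so these groups overlapped. In IgG it was 62.5, 63.8 and 159 untreated and 30.1 and 48.8 with cycloheximide, without overlap. The log2 change in Upf1 was -0.63 ± 1.21 (SE, limma adjusted p = 0.79), and its sign turned among the libraries with 38 nt reads (1.09).

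A tract on chromosome 8, chr8:124405064-124406962 on the minus strand (1899 nt), showed the largest ratio of the 10 between untreated and treated Upf1 means. Its rate was 158, 95.5 and 79.1 in untreated Upf1 libraries and 6.70 and 12.3 with cycloheximide, a ratio of means of 11.7. In IgG it was 10.4, 115 and 137 untreated, and 0 (no alignment of 6650) and 32.5 with cycloheximide, so the IgG groups overlapped. The log2 change in Upf1 was -3.10 ± 1.13 (SE, limma adjusted p = 0.0935), and it passed without IgG untreated A1 (log2 change -3.09), without IgG untreated I (-3.09), with scaling to library totals (-3.34) and with alignments of 30 nt or longer (-4.06).

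The other 7 were chr12:87860025-87861809 (plus strand, 224 alignments), chr7:17500790-17502283 (minus, 214), chr11:69730341-69730845 (minus, 182), chr11:120439416-120440634 (minus, 179), chr6:87793078-87794095 (minus, 174), chr2:27390303-27391525 (plus, 169) and chr11:87864127-87864904 (plus, 157). Their log2 changes in Upf1 lay between -2.41 for the region on chromosome 12 and -0.61 for chr11:87864127-87864904. The lowest of their limma adjusted p-values was 0.258, for the region on chromosome 12. On chromosome 6 the IgG groups also did not overlap, with 20.8, 38.3 and 99.1 per 100000 untreated and 0 and 16.3 with cycloheximide. The region chr11:87864127-87864904 had its midpoint 18 nt from the span. Its IgG rates were 0, 140 and 55.0 untreated and 45.1 and 92.2 treated, and its Upf1 rates were 42.0, 60.3 and 39.0 untreated and 30.1 and 18.5 treated.

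**Figure D4:**
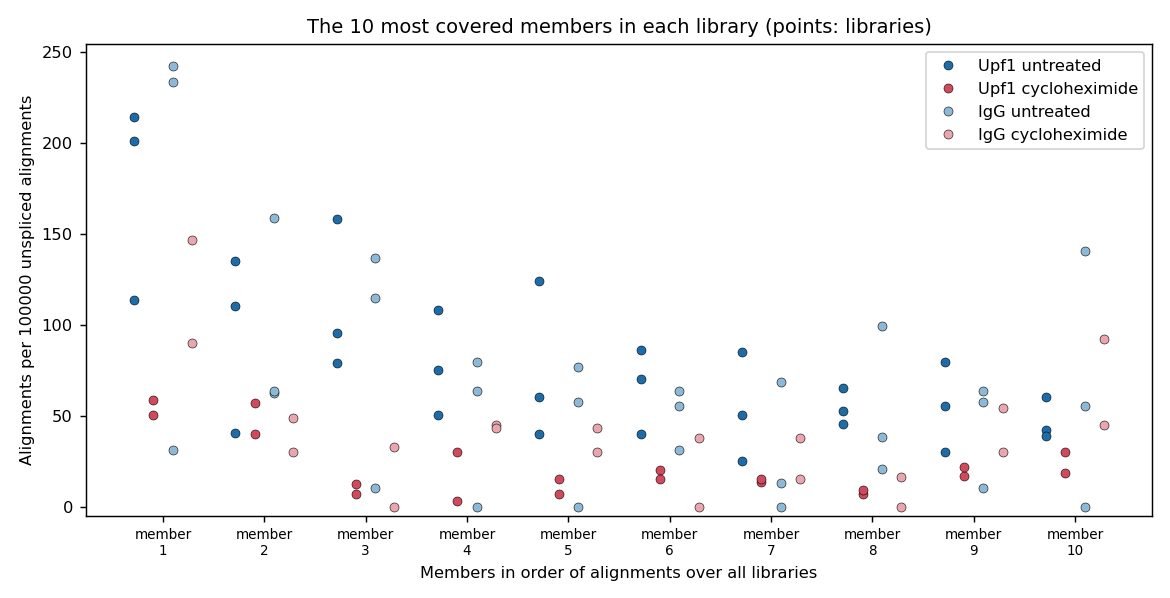
Alignments per 100000 unspliced alignments (vertical axis) of the 10 3′ regions with the most alignments, in the order in which the text names them (horizontal axis); each point is 1 library. Upf1 cycloheximide libraries sit below the Upf1 untreated ones in all except the second region, and 0 alignments were seen in 1 or more IgG libraries for 7 of the 10.

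For single regions, cycloheximide was compared with untreated in a limma-voom model of the 4 groups fitted to 2357 regions that had at least 10 alignments over all libraries and were present in at least 3. Of the 951 3′ regions 396 entered this test, so the counts describe the better covered ones and not all. A region could also pass this filter through the treated or the untreated libraries alone, in which case it had to differ. In the Upf1 libraries 17 of the 396 rose (4.29%) and 7 fell (1.77%) at a limma adjusted p under 0.05, against 3.44% and 0.636% of all tested regions. Thus the share that rose was near the background. Before adjustment, p was under 0.05 for 33 of the 396 with a positive and 50 with a negative change, against 213 and 192 of all 2357. The median log2 change was -0.85 among the 3′ regions and -0.54 among all regions, and -1.09 and -0.91 with scaling to library totals, where 10 rose and 19 fell.

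The calls were few and rested on single libraries. No call remained once Upf1 untreated A2, Upf1 cycloheximide A1 or Upf1 cycloheximide A2 was left out, with every line counted, without the filter on low values or with 38 nt reads only. Leaving out IgG untreated A1 gave 22 that rose and 22 that fell, IgG untreated I 19 and 17, Upf1 untreated A1 13 and 0, Upf1 untreated I 12 and 2, IgG cycloheximide A1 17 and 3, and IgG cycloheximide A2 12 and 3. Where an arm was left with 1 library, that library was assumed to vary like the other groups. Counting molecules gave 1 and 0, without shared molecules 3 and 2, and alignments of 30 nt or longer gave 3 and 5.

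Those that rose and those that fell lay at different distances. Most of the 17 that rose reached the filter's minimum number of alignments in cycloheximide libraries alone. Each of the 7 that fell reached it in untreated libraries alone. The filter thus favoured these directions, and the contrasts in distance, width and coverage below are not free of it. Of the 17 that rose, 14 had a midpoint within 500 nt of the span (median 118 nt, 5 to 1648.5 nt), whereas all 7 that fell lay beyond it (median 870 nt, 530.5 to 1862 nt). Among all tested 3′ regions 120 lay within 500 nt, of which 14 rose (11.7%) and 0 fell, and 19 had a positive and 15 a negative change with p under 0.05 before adjustment. The other 276 lay farther, of which 3 rose (1.09%) and 7 fell (2.54%), and 14 and 35 had such a p. Of all 2357 tested regions 3.44% rose and 0.636% fell, and 213 and 192 had such a p. For comparison, 9 of the 59 tested regions inside spans rose and 0 fell, with a median log2 change of 0.84. The regions that rose were narrow (median 109 nt, 44 to 283 nt) and thinly covered (median 13 alignments), and those that fell were wider (median 652 nt, 297 to 956 nt) with more alignments (median 59). In IgG, all 17 that rose in Upf1 had a log2 change above 0 (median 2.39), 12 of them with limma p under 0.05 before adjustment. Of the 7 that fell, 6 had one below 0, none at that p. The filter counted IgG alignments too, and 8 of the 17 had no alignment in untreated Upf1 libraries, so the filter favoured this IgG sign. IgG cycloheximide A1 and A2 also shared 83.2% and 87.0% of their molecules in 3′ regions with other libraries. The IgG values are thus not separate support.

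**Figure D5:**
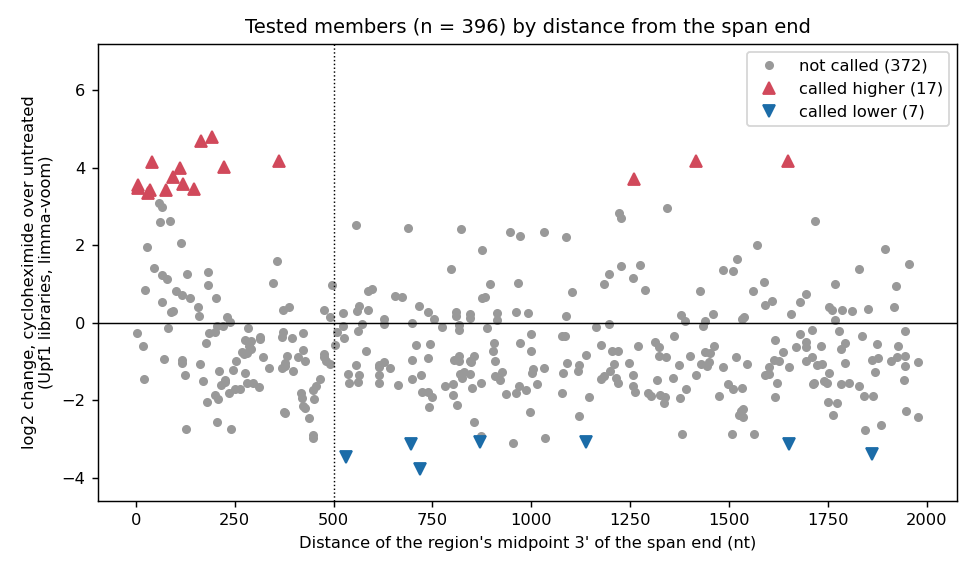
Log2 change with cycloheximide in Upf1 libraries (vertical axis, limma-voom) of the 396 tested 3′ regions against the distance of their midpoint from the span end (horizontal axis, nt; dotted line at 500 nt). The 17 regions that rose (triangles up) sit mostly at the left, 14 of them within 500 nt, and the 7 that fell (triangles down) sit beyond 500 nt.

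Among those that rose, chr3:145311557-145311712 (minus strand, 193 nt from the span) had 0 alignments in all 3 untreated Upf1 libraries and 4 and 10 in cycloheximide A1 and A2. In IgG it had 0, 1 and 1 untreated and 3 and 5 with cycloheximide, the same order. The Upf1 rate was at least 15.2-fold higher with cycloheximide, against a floor of 3 alignments over the untreated group, and the log2 change was 4.79 ± 1.08 (SE, limma adjusted p = 0.00424). The IgG rate was 10.02-fold higher (exact 95% interval 2.00 to 96.9, counting error only).

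The region chr17:35972659-35972941 (minus strand, 164.5 nt from the span) had 2, 0 and 0 alignments in untreated Upf1 libraries and 12 and 7 with cycloheximide, and in IgG 2, 0 and 1 against 2 and 7. Its Upf1 rate was 30.9-fold higher (exact 95% interval 7.45 to 273), with a log2 change of 4.69 ± 1.11 (SE, limma adjusted p = 0.00708).

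The next regions had fewer alignments, 12, 13 and 18 over all libraries. In chr14:31826371-31826478 (minus strand, 1416 nt from the span) and in chr5:77710101-77710144 (plus strand, 363 nt) the counts were 0 in each untreated Upf1 library and 4 in each treated one. In chr3:41400563-41400650 (plus strand, 41 nt) they were 0 in each untreated library and 5 and 3 in the treated ones. Each of these 3 was at least 8.66-fold higher, and each had a limma adjusted p of 0.0088. The region on chromosome 14 passed the filter through cycloheximide libraries alone. The one on chromosome 5 and chr3:41400563-41400650 each had 1 alignment from untreated libraries. The direction of these 3 was therefore set by the filter. Likewise, chr3:145311557-145311712 and chr17:35972659-35972941 reached the minimum of 10 alignments in cycloheximide libraries alone, so the filter favoured their direction too. Of the 17 regions that rose, 8 had no alignment in the untreated Upf1 libraries. In IgG the region on chromosome 14 had no alignment in 3 untreated libraries and 1 and 3 in the treated ones, and chr3:41400563-41400650 had 0, 1 and 0 against 4 and 5.

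Among those that fell, chr7:133635303-133636258 (minus strand, 956 nt wide, 718 nt from the span) had 55, 4 and 11 alignments in untreated Upf1 libraries A1, A2 and I and 0 in both cycloheximide libraries. The rate was at least 7.18-fold lower, against 3 alignments over the treated group, with a log2 change of -3.77 ± 0.965 (SE, limma adjusted p = 0.0088). In IgG it had 2, 1 and 9 untreated and 0 and 2 with cycloheximide, a rate 2.39-fold lower with an exact 95% interval (0.533 to 22.03) that includes equality.

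The pattern was similar at chr11:120668396-120669116 (minus strand), with 37, 4 and 9 untreated and 0 and 0 treated in Upf1, and at chr11:53074610-53075078 (minus strand), with 12, 7 and 8 against 0 and 0. These rates were at least 5.13-fold and 2.77-fold lower (limma adjusted p = 0.0177 and 0.0362). At chr11:120421629-120422075 (minus strand) the alignments numbered 39, 8 and 13 against 0 and 1. There the rate was 18.5-fold lower (exact 95% interval 3.19 to 741, limma adjusted p = 0.0365).

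The region chr4:131887844-131888763 (minus strand, 920 nt wide, 1862 nt from the span) had 37, 7 and 23 alignments in untreated Upf1 libraries and 1 and 0 with cycloheximide, a rate 20.6-fold lower (exact 95% interval 3.58 to 827, limma adjusted p = 0.0198). With IgG it had 0, 2 and 9 untreated and 1 and 3 treated. Here the IgG rates did not differ beyond counting error (1.10-fold lower, exact 95% interval 0.325 to 4.73). It had the lowest p of the 3′ regions for a more negative effect in Upf1 than in IgG, with a log2 difference of -3.85 ± 1.48 (SE), which did not pass (limma adjusted p = 0.952).

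A called region shared its span with another tested 3′ region at 8 spans, and at 4 of these the log2 changes had both signs. At a minus strand span on chromosome 6 (87795535 to 87795663), chr6:87795464-87795545, 30 nt away, had 1, 0 and 0 alignments in untreated Upf1 libraries and 4 and 2 in treated ones, and rose (log2 change 3.34 ± 1.05, SE, limma adjusted p = 0.0377). Behind the same span, 1948 nt away, chr6:87793078-87794095 had 50, 9 and 57 against 2 and 3 (log2 change -2.28 ± 1.17, SE, limma adjusted p = 0.288, not passed). The near region's IgG counts were 0, 0 and 2 against 1 and 1, and the far one's were 2, 3 and 45 against 0 and 3.

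At another minus strand span of chromosome 6 (39349916 to 39350419), the region chr6:39349825-39349933, 36.5 nt away, had 0, 0 and 1 against 5 and 3 alignments in Upf1 and rose (limma adjusted p = 0.0365). Behind it chr6:39348698-39349105, 1014 nt away, had 12, 0 and 7 against 0 and 0 (limma adjusted p = 0.356, not passed). Of the 6 members at this span 5 lay over 500 nt from it, and those had 1 alignment in all from the Upf1 cycloheximide libraries.

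The span of chr17:35972659-35972941 had 3 more members farther along. They had 6, 0 and 6 against 6 and 4 alignments in Upf1 at 1088 nt, 5, 0 and 5 against 0 and 0 at 1546 nt, and 13, 3 and 4 against 2 and 5 at 1918.5 nt, so distance did not order the changes there. On chromosome 4, the region that rose was the farthest of its span, chr4:55403925-55404120 at 1260 nt, with 3, 0 and 0 against 5 and 5 (limma adjusted p = 0.0256). The nearest member of that span, 205.5 nt away, had 6, 0 and 6 against 2 and 0. Loci of this kind were described after their values were seen.

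In IgG, 0 of the 396 tested 3′ regions rose and 0 fell with cycloheximide, against 0.0% and 0.0424% of all tested regions, by limma-voom and also by the trended limma test. Before adjustment, p was under 0.05 for 31 with a positive and 2 with a negative change, against 155 and 37 of all 2357 tested regions. The lowest p belonged to chr9:30978038-30978118 (minus strand), with 0 alignments in the 3 untreated IgG libraries and 3 and 5 in the treated ones, at least 6.68-fold higher (limma adjusted p = 0.222). It was followed by chr17:34249366-34249416 (minus strand), with 0 in each untreated and 3 in each treated IgG library, at least 5.01-fold higher (limma adjusted p = 0.222). In the other direction the lowest p belonged to chr15:81535221-81535630 (minus strand), with 2, 1 and 11 against 0 and 0, and to chr2:4911843-4912430 (minus strand), with 2, 1 and 3 against 0 and 0, both not passed.

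The antibody itself, with treatment as a covariate, gave 0 calls among the 396 in either direction (background 0.0% and 0.0%, limma-voom), also by the trended limma test. Before adjustment, limma-voom p was under 0.05 for 5 toward Upf1 and 6 toward IgG, against 28 and 41 of all 2357 tested regions. The lowest p for Upf1 over IgG belonged to chr11:102152755-102152977 (minus strand), with 12, 1, 7, 4 and 1 alignments in the 5 Upf1 libraries and 0, 0, 2, 0 and 0 in IgG, and to a region on chromosome 18, chr18:35064330-35064697 (minus strand), with 6, 2, 8, 6 and 5 against 0, 0, 1, 0 and 3. Neither passed (limma adjusted p = 0.997). For IgG over Upf1 they belonged to chr3:145311557-145311712 and chr3:41400563-41400650, both described above, at the same adjusted p. No 3′ region was therefore shown to be recovered more with Upf1 than with IgG at this depth.

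The difference of the cycloheximide effects between antibodies was also not called in any of the 396 (background 0.0% in both directions, limma-voom and trended limma). Before adjustment, limma-voom p was under 0.05 for 2 with a positive and 12 with a negative difference, against 43 and 57 of all 2357 tested regions. The lowest p for a more positive effect in Upf1 belonged to chr17:32193565-32193721 (plus strand), with 0, 0 and 0 against 4 and 3 in Upf1 and 0, 1 and 1 against 1 and 1 in IgG, and to chr11:106109274-106109474 (plus strand), with 2, 0 and 1 against 0 and 4 in Upf1 and 0, 2 and 1 against 0 and 0 in IgG. For a more negative effect, chr9:71326284-71326791 (minus strand) followed the region on chromosome 4, with 10, 2 and 13 against 0 and 1 in Upf1 and 0, 0 and 3 against 1 and 2 in IgG. All of these had a limma adjusted p of 0.952. The regions called in Upf1 and not in IgG are thus not shown to differ between the antibodies.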

How the data were processed

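The files deposited by the authors list 1 alignment per line on mouse build mm9. Bowtie 0.12.6, TopHat 1.4.0 and Cufflinks 1.3.0 are named in the submitters' processing notes; which of these made the alignments is not given in the sources used here. In the deposited files the score was 255 in every line and was not used, and the other column, a name, joins a serial number, a copy number and 2 letters. Per the labels, random bases in the adapter served to remove PCR copies. The files were not filtered alike, so each distinct alignment (position, end and strand) was counted once per library. Alignments over 60 nt were taken as spliced. Members and lists were chosen with earlier results of these data known.

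Shares were compared by exact two-sided permutation of labels within the other factor, with Benjamini-Hochberg adjustment over 6 tests. Regions with at least 10 alignments over all libraries and present in at least 3 were fitted with limma-voom (limma 3.58.1, R 4.3.3) after scaling by the trimmed mean of M values (trims 30% and 5%), adjusted over all 2357 regions, with a threshold of 0.05. These values are line tallies, for which no negative binomial tool was used. Named were the 10 members with the most alignments, for each comparison and direction the 5 passing members of lowest p, and otherwise the 2 of lowest p. Distance runs from the span's 3′ end to the midpoint of the region. Coordinates are 1-based. Sequences were not used here, since no genome of this build was at hand, and planned sequence features were not run. Alternatives covered counting, spans, limits, filters, scaling, read length and each library left out. Python 3.11.15, numpy 2.4.6, pandas 2.3.3 and scipy 1.17.1 were used.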

Additional observations from a re-analysis of the deposited data

How the results depend on the processing

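Differences are in percentage points for cycloheximide minus untreated, with exact permutation tests; the distal share is that over 500 nt. The distal share and the share of 3′ regions against span interiors were lower in every alternative run. Both passed after adjustment with a region minimum of 10, without the 20 most covered regions and with at least 30 nt, and the distal share also with a limit of 1000 nt; below are those that did not. With every line counted they were -15.2 and -10.4, with molecules -16.1 and -12.1, without shared molecules -12.8 and -15.0, within 1000 nt -20.2 and -12.1, with untreated spans -13.5 and -8.13, and with 38 nt reads -13.6 and -9.83. Within Upf1 they were -17.8 and -18.6 and within IgG -14.0 and -7.38. The distal share was -10.9 at spans with members on both sides of 500 nt, and the other was -4.94 with all alignments inside the spans. The last 4 settings, and alignments of 30 nt or longer, were chosen after seeing the data. Leaving out 1 library gave -17.6 to -14.8 and -14.1 to -11.3, with adjusted p from 0.05 to 0.225; these designs allow few relabelings. Pairing was looked for by correlating deviations from group means between libraries of different groups. Same-label libraries had correlations from -0.17 to 0.42, over 0.1 in 7 of 13 pairs, and 8 of 10 libraries correlated best with one of the same label. This is a hint of pairing that the labels do not state. In groups of 2 libraries the deviations mirror each other, so these pairs are not independent. The part of molecules shared between libraries was not tested. With the replicate block the differences were -14.3 and -12.2 (exact permutation p = 0.125 each, the smallest possible), and 18 regions rose and 5 fell. The share of alignments in 3′ regions turned to 0.0403 within 1000 nt, 0.179 with 38 nt reads and 0.956 in IgG alone. Upf1 minus IgG turned in the distal share to 1.09 without shared molecules, and ranged from -2.46 to 0.313 (0.308 and 0.313 without IgG untreated I and Upf1 cycloheximide A1) when 1 library was left out, and against span interiors to -0.143 without the 20 most covered regions. None of these reversals passed.

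Single regions that rose and fell (17 and 7 by limma) numbered 0 and 0 with lines, 38 nt reads or no filter, 1 and 0 with molecules, 3 and 2 without shared molecules, 3 and 5 with at least 30 nt, 2 and 0 with at least 30 alignments, 10 and 19 with library totals, and 18 and 2 with the trended test. Of these, 4 fell within 1000 nt and 4 with untreated spans. Leaving out 1 library gave 0 to 22 of each. The other 3 region comparisons gave 0 calls among members in every alternative run. For named regions, chr5:92481418-92484075 turned to 1.09 with 38 nt reads, 0.084 with the block and 0.13 with at least 30 alignments, chr11:120439416-120440634 to 0.10 with 38 nt reads, and chr11:87864127-87864904 to 0.27 with at least 30 alignments; the cause was not tested. Depth limits these results: most 3′ regions had under 10 alignments over all libraries.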
